A study of Mus musculus with 12 samples.

Results

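The blood vessels of the mouse cortex were read here through 35 genes, chosen by name as markers of brain endothelium, of the blood-brain barrier and of the mural cells that wrap the vessels. All 35 were found among the 54232 gene identifiers of the count table, and all 35 passed the filter on low counts. By role, 15 mark endothelial identity, 3 build tight junctions, 7 carry solutes across the barrier, 7 mark pericytes and 3 mark smooth muscle. No measured value entered the choice of the genes, but it was made with earlier results from these data known.

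Capillaries of the brain are lined by endothelial cells that are sealed to one another by tight junctions, carry few transport vesicles and express transporters that select what enters and leaves the tissue. Pericytes share the basement membrane of the capillary and maintain this barrier, and smooth muscle cells surround the arterioles and set blood flow. Most of these genes are strongly enriched in vessels, but Tjp1, Slc2a1 and Slc7a5 are also expressed by neurons or glia, so their level in whole cortex is not that of vessels alone.

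The mutant mice were homozygous for the Y446C allele of Tbl1xr1 (Tbl1xr1 Y446C/Y446C), which models Pierpont syndrome, and were compared with wild-type mice. The protein belongs to the NCoR complex, which represses targets of nuclear receptors. There were 6 mutants (3 females and 3 males) and 6 wild-type mice (3 females and 3 males), and all were C57BL/6J mice 12 weeks old that, per the labels, were killed by exsanguination. The labels name no Cre line and no drug, and messenger RNA of frozen cortex was sequenced with 1 library per mouse. Libraries are named by sex, genotype and animal number.

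The whole count table set one library apart. Female mutant 3 had 3748515 counts, of which mitochondrial genes took 31.6%, whereas the other 11 libraries had 21238427 to 32669138 counts and 5.23% to 10.4%. With counting error alone, a gene with a count of 0 could have a level of up to 1.16 CPM (counts scaled to a common library total) in female mutant 3 and of up to 0.0861 to 0.137 CPM in the others. Results are therefore given with all 12 libraries and without female mutant 3. Tbl1xr1 itself, in which a point mutation need not alter the transcript level, had 90.7 to 97.9 CPM in mutants and 92.7 to 114 CPM in wild-type mice. Female wild-type 5, at 92.7 CPM, was the only wild-type mouse within the mutant range. By edgeR's quasi-likelihood test the log2 fold change was -0.17 (SE 0.07, 95% interval -0.32 to -0.03), with an unadjusted p of 0.0251 and an adjusted p = 0.950.

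Vascular transcripts were present in every library. The endothelial tight junction gene Cldn5, the endothelial receptor gene Flt1 and the pericyte receptor gene Pdgfrb, which define the cell types, had counts in all 12 libraries. In the 11 deeper libraries the lowest count of any of the 35 genes was 17, for Higd1b, whereas in female mutant 3 the counts ran from 0 for Higd1b to 754 for Tjp1. Per kilobase of exon in wild-type mice, the highest levels were those of Rgs5 at 26.4 ± 4.08, Tjp1 at 22.3 ± 2.12, Vtn at 20.3 ± 1.501, Itm2a at 18.1 ± 1.90, Slc2a1 at 15.5 ± 0.72 and Cldn5 at 12.7 ± 1.02 CPM per kb (SD, n = 6). Of neighbours in this order, Tjp1 and Vtn differed by less than the SD of Tjp1. The lowest levels were those of Slc38a5 at 0.750 ± 0.135 and Vwf at 0.839 ± 0.162 CPM per kb, which lay within 1 SD of each other. Exon length here joined the annotated exons of all transcripts of a gene. For Vwf it was 16064 bases, against 8834 in its longest coding transcript, so the order of the genes depends in part on the annotation. The spread between mice of a group, over 11 libraries, ran from a coefficient of variation of 5.57% for Slc2a1 to 34.3% for Ly6a.

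**Figure D1:**
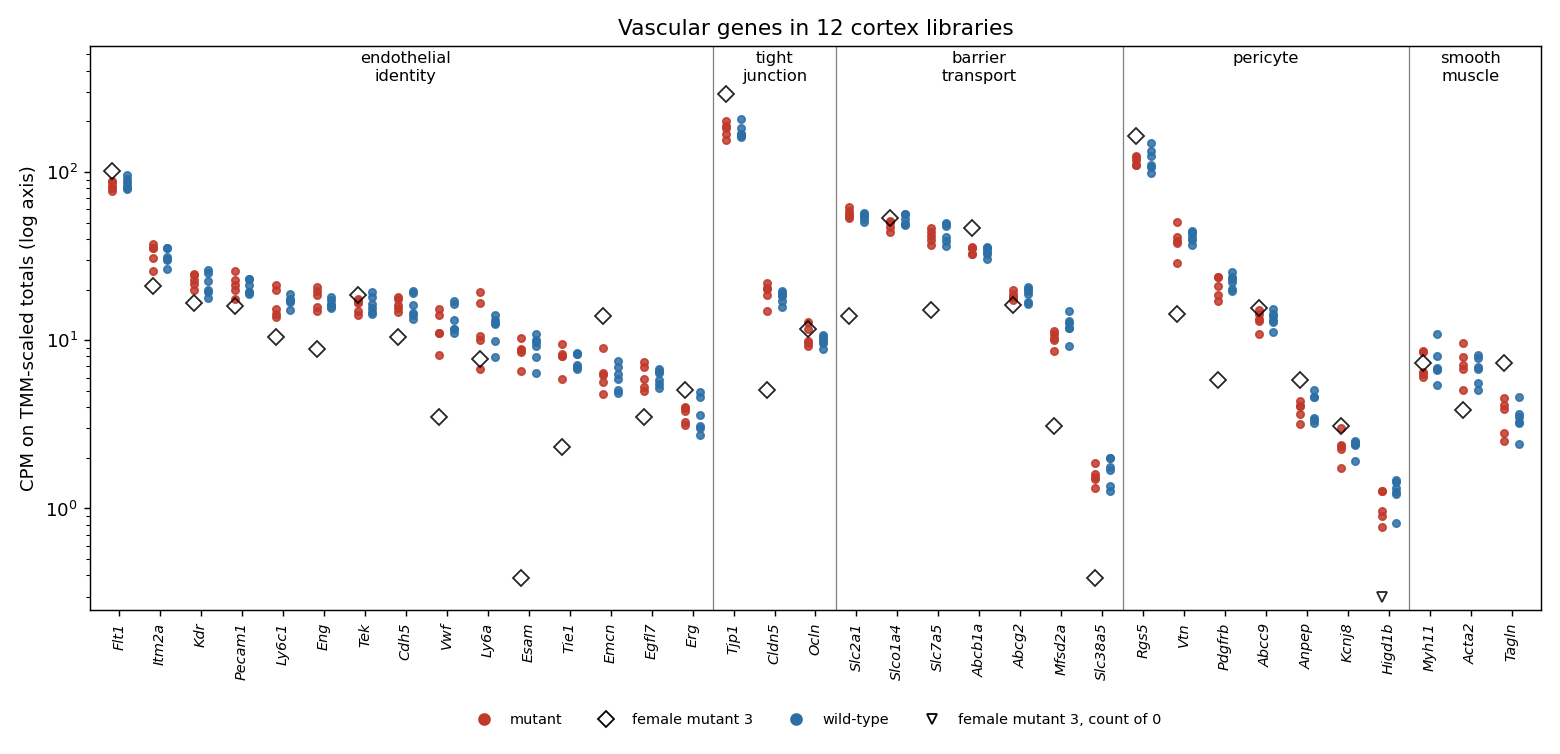
Level of each of the 35 genes in each of the 12 libraries, in CPM on a log axis, by role and within a role by the wild-type mean. Mutant libraries are red, wild-type libraries blue and female mutant 3 an open diamond, with a triangle for its count of 0 (Higd1b). The mutant and wild-type points overlap for every gene, and female mutant 3 lies apart for Esam, Slc2a1 and Cldn5 among others.

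Over both sexes, no vascular gene was called as different between the genotypes. By edgeR's quasi-likelihood test with Benjamini-Hochberg adjustment over all genes tested, 0 of the 35 had an adjusted p under 0.05, against 0.00555% of all 18016 genes tested. At an unadjusted p under 0.05 the count was also 0 of 35, against 3.96% of all genes. With female mutant 3 left out it was 0 of 35 adjusted, against 0.0108% of 18461 genes, and 1 of 35 unadjusted (Mfsd2a, lower in mutants), against 7.46%. DESeq2 and weighted limma-voom also called 0 of 35, with and without that library. For none of the 35 did the 6 mutants and the 6 wild-type mice fail to overlap, against 0.438% of all genes, and this was still 0 without female mutant 3, against 1.08%.

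The log2 fold changes (mutant over wild-type) of the 35 genes ran from -0.36 for Mfsd2a to 0.20 for Emcn, with a median of -0.02, beside a median of -0.01 over all genes. In all, 13 lay above 0 and 22 below, and without female mutant 3 they were 17 and 18, with a median of -0.01 beside 0.00 over all genes. The 95% intervals lay wholly within a 1.5-fold difference in either direction for 23 of 35 genes with all libraries and for 33 of 35 without female mutant 3. The other 2 in that fit were Ly6a and Higd1b, whose intervals were wider. A missed threshold does not show that a gene was the same in both genotypes.

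Markers of a neighbouring brain region are given beside these values. The 8 listed genes of striatal neurons, none at 0 in every library, summed to 275 to 1075 CPM in mutants and 509.6 to 1805 CPM in wild-type mice, ranges that overlap. All 8 lay below 0, with a median log2 fold change of -0.79, and 5 had an unadjusted p under 0.05, against 3.96% of all genes, but 0 an adjusted one. Without female mutant 3 the median was -0.86, with 7 at an unadjusted p under 0.05, against 7.46% of all genes, and again 0 adjusted. Their part in the values of the vascular genes, and of Cd34 among the further lists, was not tested.

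**Figure D2:**
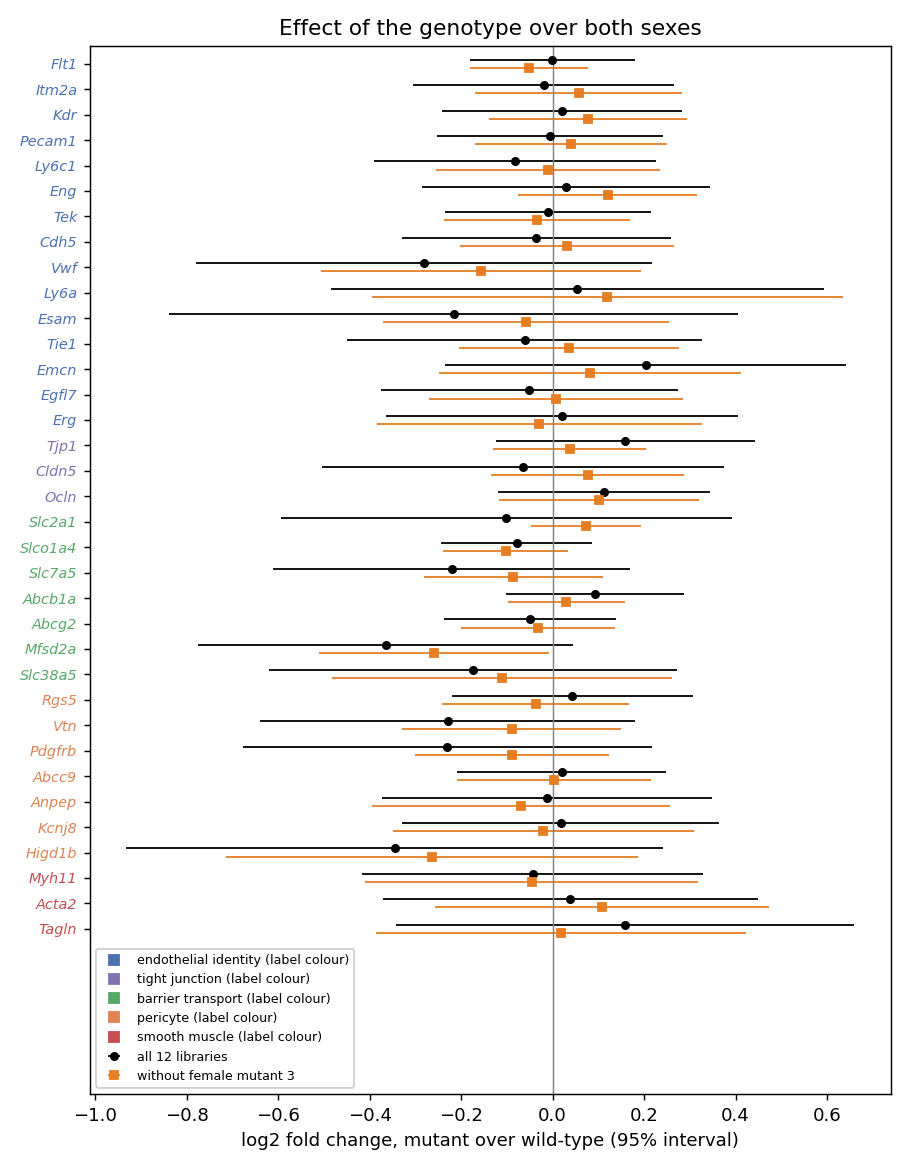
Log2 fold change, mutant over wild-type over both sexes, of each gene with its 95% interval, from edgeR. Circles are the fit of all 12 libraries and squares the fit without female mutant 3, and label colours give the role. Every interval of the 12-library fit includes 0, and without female mutant 3 only that of Mfsd2a (-0.51 to -0.01) does not.

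The 15 endothelial identity genes had a summed level of 277 ± 31.4 CPM in mutants and 284 ± 13.7 CPM in wild-type mice (SD, n = 6 each). Their median log2 fold change was -0.01, with 5 above 0 and 10 below, and without female mutant 3 it was 0.03, with 9 above and 6 below. In whole tissue, fewer cells of a type and less RNA per cell cannot be told apart. Flt1, a receptor for vascular endothelial growth factors, had 77.5, 84.4 and 102 CPM in mutants (lowest, median, highest), against 79.1, 85.03 and 95.5 CPM in wild-type mice. The ranges nearly coincided, and the log2 fold change was 0.00 (95% interval -0.18 to 0.18).

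Vwf, which encodes von Willebrand factor, the platelet-binding protein stored by endothelium, had 3.48, 11.0005 and 15.3 CPM in mutants, against 11.1, 12.4 and 17.1 CPM in wild-type mice. The lowest mutant was female mutant 3, female mutant 6, at 8.16 CPM, and male mutants 7 and 27, at 10.97 and 11.03 CPM, were also below the wild-type range, and female mutant 1 and male mutant 10 lay within it. The log2 fold change was -0.28 (SE 0.23, unadjusted p of 0.244), and -0.16 without that library. Emcn, the sialomucin endomucin of capillaries and veins, had 4.80, 6.27 and 13.9 CPM in mutants and 4.88, 6.06 and 7.499 CPM in wild-type mice. Its highest value was that of female mutant 3, and the log2 fold change of 0.20 (SE 0.20) was 0.08 without it. Tie1, an orphan receptor that modulates angiopoietin signalling, had 2.32, 8.06 and 9.44 CPM in mutants and 6.77, 7.69 and 8.41 CPM in wild-type mice, with female mutants 3 and 6 below the wild-type range and male mutant 10 above it.

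The other endothelial genes differed little. Pecam1 and Cdh5, adhesion molecules of the endothelial junction, had log2 fold changes of -0.01 and -0.04, and Kdr and Tek, the receptors for vascular endothelial growth factor and angiopoietins, had 0.02 and -0.01. Itm2a, an integral membrane protein gene of brain endothelium, had -0.02 over both. Esam, another junctional adhesion molecule, had -0.22 with all libraries and -0.06 without female mutant 3, in which its level was 0.387 CPM from a single count. Eng, a coreceptor for transforming growth factor beta, had 0.03, the transcription factor gene Erg had 0.02 and Egfl7, a secreted regulator of vessel growth, had -0.05. Ly6c1 and Ly6a, which encode surface antigens of brain endothelium, had -0.08 and 0.05, and reads of these similar genes may have been split in the counting. The counts of Egfl7 and Eng are uncertain in part. Exons of Egfl7 share 264 bases with Gm20532 on the same strand and 64 bases with Agpat2 on the opposite strand. Those of Eng share 61 bases with Fpgs on the opposite strand, and the strand setting of the counting is not given in the sources used here.

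Among the 3 tight junction genes, the median log2 fold change was 0.11, with 2 above 0 and 1 below, and without female mutant 3 it was 0.08 with 3 above. Cldn5, the main claudin of the blood-brain barrier, had 5.03, 19.3 and 21.8 CPM in mutants, against 15.7, 18.4 and 19.6 CPM in wild-type mice. Its log2 fold change was -0.06 (SE 0.20, adjusted p = 0.974) with all libraries and 0.08 (SE 0.10) without female mutant 3. Tjp1, which encodes the scaffold protein ZO-1, had 154, 185 and 292 CPM in mutants and 161, 168 and 205 CPM in wild-type mice. Its highest value was again that of female mutant 3, and its log2 fold change was 0.16 (SE 0.13) with that library and 0.04 (SE 0.08) without it. Ocln, which encodes the junction protein occludin, had 9.24, 10.7 and 12.8 CPM in mutants and 8.85, 9.94 and 10.8 CPM in wild-type mice, with a log2 fold change of 0.11 (SE 0.11). The ranges of all 3 genes overlapped.

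The 7 barrier transport genes had a median log2 fold change of -0.10, with 1 above 0 and 6 below, beside 52.4% of all genes below 0. The median without female mutant 3 was -0.09, with 2 above and 5 below. Their summed level was 201 ± 26.6 CPM in mutants and 216 ± 6.08 CPM in wild-type mice (SD, n = 6 each), and 212 ± 7.89 CPM in the 5 mutants without female mutant 3. None of the 7 passed the adjusted threshold.

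Mfsd2a, the transporter of lysophospholipids that carry docosahexaenoic acid into the brain, also restrains vesicle transport across the endothelium. It had the lowest unadjusted p over both sexes of the 35 genes. Female mutants 1, 3 and 6 had 11.3, 3.10 and 8.65 CPM and male mutants 7, 10 and 27 had 10.8, 10.1 and 10.3 CPM, against 13.03, 12.7 and 11.7 CPM in female wild-type mice 2, 4 and 5 and 9.18, 11.9 and 14.8 CPM in male wild-type mice 8, 12 and 13. The mutants overlapped with the wild-type mice through male wild-type 8 alone. The log2 fold change was -0.36 (SE 0.19, unadjusted p of 0.0766, adjusted p = 0.950) with all libraries and -0.26 (SE 0.12, unadjusted p of 0.0448, adjusted p = 0.656) without female mutant 3. The adjusted p over 21 alternative settings ran from 0.282 to 0.9998.

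Slc7a5, the light chain of a large neutral amino acid transporter that also takes up thyroid hormone, had 15.1, 40.5 and 46.7 CPM in mutants and 36.4, 44.2 and 49.6 CPM in wild-type mice. Apart from female mutant 3 the groups overlapped, and the log2 fold change was -0.22 (SE 0.18) with it and -0.09 (SE 0.09) without it. Slc2a1, the glucose transporter GLUT1 of the barrier, had 13.9, 55.5 and 61.8 CPM in mutants and 50.2, 54.7 and 57.2 CPM in wild-type mice. Its log2 fold change of -0.10 (SE 0.23) was 0.07 (SE 0.06, 95% interval -0.05 to 0.19) without female mutant 3, so the sign turned with that library. The efflux pump genes Abcb1a (P-glycoprotein) and Abcg2 had 0.09 and -0.05, the organic anion transporter gene Slco1a4 had -0.08, and Slc38a5, a transporter of glutamine and other neutral amino acids, had -0.17. Abcb1a has the close copy Abcb1b and shares 553 exonic bases with Gm42686 on the opposite strand, and Slc2a1 shares 105 with Gm12868, so their counts are uncertain in part.

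Pericyte genes had a summed level of 199 ± 9.60 CPM in mutants and 205 ± 21.5 CPM in wild-type mice (SD, n = 6 each). Rgs5 alone made up most of these sums, with means of 125 CPM in mutants and 120 CPM in wild-type mice. The median log2 fold change of the 7 was -0.01, with 3 above 0 and 4 below, and without female mutant 3 it was -0.07, with 1 above and 6 below. Pdgfrb, the receptor through which endothelial platelet-derived growth factor recruits pericytes, had 5.81, 19.9 and 23.7 CPM in mutants and 19.7, 22.6 and 25.4 CPM in wild-type mice. With a log2 fold change of -0.23 (SE 0.21), and -0.09 (SE 0.10) without female mutant 3, it did not pass.

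Higd1b, a small mitochondrial protein gene that marks brain pericytes, was the least counted of the 35. Mutants had 0, 0.933 and 1.27 CPM and wild-type mice had 0.818, 1.29 and 1.48 CPM. The count of 0 was that of female mutant 3, where it allows up to 1.16 CPM, and the log2 fold change without that library was -0.26 (SE 0.21, adjusted p = 0.839). Vtn encodes vitronectin, an adhesive protein of the matrix that brain pericytes make. It had 14.3, 38.1 and 50.6 CPM in mutants and 36.7, 41.7 and 44.3 CPM in wild-type mice, and the log2 fold change was -0.23 (SE 0.19) with all libraries and -0.09 (SE 0.11) without female mutant 3.

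Rgs5, a regulator of G protein signalling, was the most abundant pericyte gene, at 110, 119.9 and 164 CPM in mutants and 98.7, 118 and 148 CPM in wild-type mice. Its log2 fold change was 0.04 (SE 0.12) with all libraries and -0.04 (SE 0.09) without female mutant 3. Kcnj8 and Abcc9, the subunits of the vascular ATP-sensitive potassium channel, had 0.02 and 0.02, and Anpep, the aminopeptidase CD13, had -0.01. Exons of Abcc9 share 158 bases with an antisense gene.

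The 3 smooth muscle genes overlapped between the genotypes, with a median log2 fold change of 0.04 (0.02 without female mutant 3). Tagln, the actin-binding protein transgelin, had 2.52, 3.99 and 7.36 CPM in mutants and 2.41, 3.39 and 4.57 CPM in wild-type mice, with a log2 fold change of 0.16 (SE 0.23), and 0.02 without female mutant 3, its highest library. Its exons share 108 bases with Pcsk7 and 1241 bases with the antisense gene Gm48529, so its counts are uncertain. Myh11, the smooth muscle myosin heavy chain, had 6.05, 6.93 and 8.57 CPM in mutants and 5.40, 6.79 and 10.9 CPM in wild-type mice. Acta2, smooth muscle actin, had 3.87, 6.91 and 9.61 CPM in mutants and 5.03, 6.81 and 8.18 CPM in wild-type mice, and its log2 fold change was 0.04 (SE 0.19). Markers of meningeal fibroblasts, whose tissue carries larger vessels, summed to 113 to 159 CPM in mutants and 102 to 145 CPM in wild-type mice over 10 genes, none of them at 0 in every library, and their part in these values was not tested.

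The promoters of Itm2a and Cldn5 are shown because these were the vascular genes whose mutant and wild-type mice did not overlap in either sex with all 12 libraries, with mutants lower in females and higher in males. These were 2 of 35 genes, against 1.22% of all genes, and without female mutant 3 Tagln made them 3 of 35, against 1.33%. Of the 35 genes, 25 had an entry in the RefSeq promoter table (build GRCm38.p6), which holds 250 bases before and 50 after a start site. The other genes were Pecam1, Cdh5, Esam, Vwf, Ly6a, Slc7a5, Pdgfrb, Higd1b, Tagln and Myh11. Itm2a (ENSMUSG00000031239) lies at chrX:107397099-107403376 and Cldn5 (ENSMUSG00000041378) at chr16:18776847-18778262. Both windows are printed on the strand of the gene, 5′ to 3′, and capitals mark the letters of motifs that a search on both strands found: AGGAAG, the core bound by ETS factors, CCAAT, and the GC box GGGCGG. The Itm2a window is chrX:107403311-107403610 on the minus strand and the Cldn5 window is chr16:18776597-18776896 on the plus strand.
Itm2a: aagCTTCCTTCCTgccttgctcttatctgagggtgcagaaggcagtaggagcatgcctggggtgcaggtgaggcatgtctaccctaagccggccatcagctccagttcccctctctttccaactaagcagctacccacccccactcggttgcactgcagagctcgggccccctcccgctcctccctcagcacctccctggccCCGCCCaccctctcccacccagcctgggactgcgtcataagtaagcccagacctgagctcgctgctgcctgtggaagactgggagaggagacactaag
Cldn5: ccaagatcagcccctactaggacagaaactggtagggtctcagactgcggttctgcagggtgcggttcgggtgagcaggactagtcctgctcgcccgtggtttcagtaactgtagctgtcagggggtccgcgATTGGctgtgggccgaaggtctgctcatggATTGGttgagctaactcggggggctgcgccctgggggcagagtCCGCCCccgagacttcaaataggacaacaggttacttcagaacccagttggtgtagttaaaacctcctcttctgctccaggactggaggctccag
The Itm2a window holds AGGAAG at offsets of -247 and -243 from the start, which overlap, and the GC box at -48. The Cldn5 window holds CCAAT at offsets of -118 and -88 and the GC box at -45. All these matches are on the strand opposite to the gene. The motifs were chosen with the sequences in view. Over the 33 windows of the vascular genes, AGGAAG was in 42.4%, against 35.4% of all 32851 windows, CCAAT in 30.3%, against 37.4%, and GGGCGG in 45.5%, against 35.7%. The nuclear receptor half-site AGGTCA was in 24.2%, against 16.3%, and the CArG box in 0%, against 1.63%. At so low a share, 33 windows can easily hold none. Of the smooth muscle genes only Acta2 was searched, because Tagln and Myh11 have no window. A match is a description of the letters and not of binding.

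In females, 26 of the 35 genes lay below 0 and 9 above, with a median log2 fold change of -0.14 beside -0.03 over all genes, of which 53.5% lay below 0. Without female mutant 3 the numbers were 25 below and 10 above, with a median of -0.08 beside -0.01. No gene passed the adjusted threshold, 0 of 35 against 0% of all genes. At an unadjusted p under 0.05, 3 of 35 passed, 1 higher (Tjp1) and 2 lower (Itm2a and Vtn), against 11.8% of all genes, which is a smaller share than the background. Without female mutant 3, 4 of 35 passed, all lower (Itm2a, Esam, Vtn and Slco1a4), against 9.41%, with 0 of 35 adjusted against 0%. The 3 female mutants and 3 female wild-type mice did not overlap for 7 genes, with Tjp1 higher and Cldn5, Esam, Higd1b, Itm2a, Mfsd2a and Vtn lower, against 22.5% of all genes. This was so for 10 without female mutant 3, with Kcnj8, Slco1a4 and Tagln added, all lower, against 30.1%.

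In males, 22 of the 35 genes lay above 0 and 13 below, with a median of 0.05 beside 0.00 over all genes. Again 0 of 35 passed the adjusted threshold, against 0% of all genes, and 1 of 35 passed unadjusted (Itm2a, higher), against 2.78%. In the fit without female mutant 3, which shares its estimate of spread over the groups, 0 of 35 passed adjusted, against 0.00542%, and 2 of 35 unadjusted (Itm2a and Cldn5, both higher), against 8.43%. The 3 male mutants lay wholly above the 3 male wild-type mice for Itm2a, Cldn5 and Tagln, against 13.5% of all genes that did not overlap in either direction.

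Itm2a, the endothelial membrane protein gene on the X chromosome, had 30.9, 20.9 and 25.6 CPM in female mutants 1, 3 and 6, against 35.1, 31.4 and 35.3 CPM in female wild-type mice. It had 35.3, 35.5 and 37.3 CPM in male mutants, against 26.6, 29.9 and 30.5 CPM in male wild-type mice. The female mutants were all below and the male mutants all above their wild-type counterparts. The log2 fold change was -0.36 (SE 0.13, unadjusted p of 0.0187) in females and 0.31 (SE 0.13, unadjusted p of 0.0343) in males. The difference between the sexes in this effect was -0.67 (SE 0.19, 95% interval -1.08 to -0.27), with an unadjusted p of 0.00358 and an adjusted p = 0.555. Without female mutant 3 it was -0.58 (SE 0.14), with an unadjusted p of 0.00127 and an adjusted p = 0.459, and the adjusted p over the alternatives ran from 0.284 to 0.801.

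Cldn5 had 18.52, 5.03 and 15.0 CPM in female mutants, against 19.2, 18.53 and 19.6 CPM in female wild-type mice, so that the nearest libraries of the groups were almost equal. It had 20.1, 20.5 and 21.8 CPM in male mutants, against 15.7, 17.0 and 18.3 CPM in male wild-type mice. The difference between the sexes was -0.72 (SE 0.35, unadjusted p of 0.0656) with all libraries and -0.48 (SE 0.15, unadjusted p of 0.00629, adjusted p = 0.459) without female mutant 3.

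Vtn had 37.5, 14.3 and 28.8 CPM in female mutants, against 44.3, 44.1 and 39.2 CPM in female wild-type mice, and 41.3, 50.6 and 38.6 CPM in male mutants, against 43.0, 36.7 and 40.4 CPM in male wild-type mice. Only the females were apart. Its log2 fold change in females was -0.59 (SE 0.23, unadjusted p of 0.0268, adjusted p = 0.418), and -0.36 (SE 0.14) without female mutant 3. The difference between the sexes was -0.71 (SE 0.33, adjusted p = 0.555), and -0.49 (SE 0.18, adjusted p = 0.459) without female mutant 3. Tagln, an actin-binding gene of smooth muscle, had 2.52, 7.36 and 2.79 CPM in female mutants, against 3.22, 3.28 and 4.57 CPM in female wild-type mice, and 4.10, 4.53 and 3.88 CPM in male mutants, against 3.64, 2.41 and 3.51 CPM in male wild-type mice. Acta2 had 7.08, 3.87 and 5.06 CPM in female mutants, against 6.91, 7.83 and 6.72 CPM in female wild-type mice, and 6.74, 9.61 and 7.96 CPM in male mutants, against 8.18, 5.03 and 5.55 CPM in male wild-type mice. In males the log2 fold change was 0.39 for Tagln and 0.38 for Acta2, whereas for Myh11, the smooth muscle myosin, it was -0.11, none past the unadjusted threshold. The difference between the sexes was -0.52 (SE 0.45) for Tagln, -0.71 (SE 0.33) for Acta2 and 0.13 (SE 0.35) for Myh11.

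**Figure D3:**
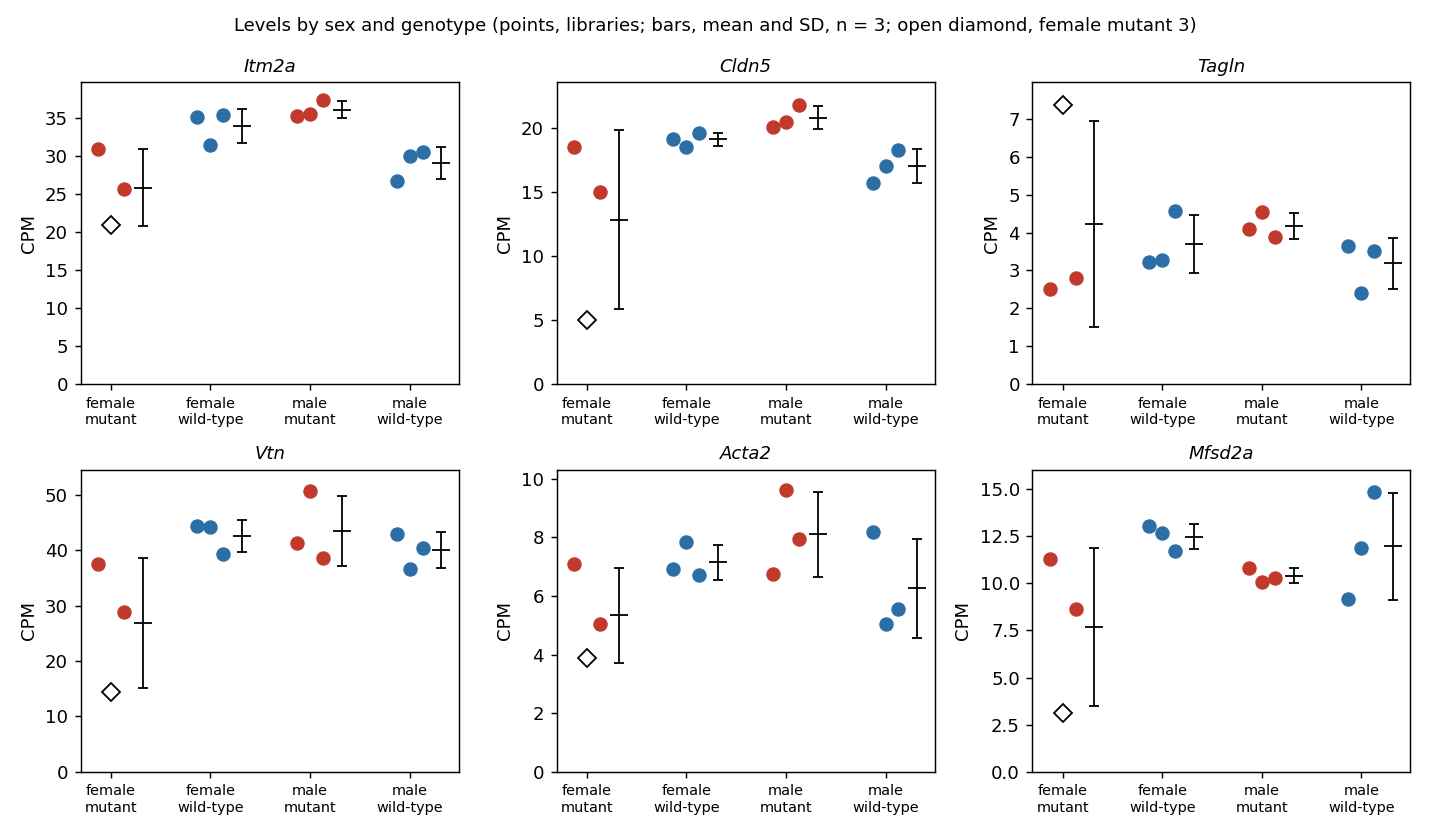
Level in CPM of Itm2a, Cldn5, Tagln, Vtn, Acta2 and Mfsd2a in each library, by sex and genotype, with the mean and SD of each group (n = 3). Red points are mutants, blue points wild-type mice and the open diamond is female mutant 3. Male mutants sit above male wild-type mice for Itm2a (35.3 to 37.3 against 26.6 to 30.5 CPM), Cldn5 and Tagln.

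As a test of the effect of genotype differing by sex, the interaction called 0 of 35 genes at the adjusted threshold, against 0% of all genes. Unadjusted, 2 of 35 passed (Itm2a and Vtn, both with the lower effect in females), against 7.67%. Without female mutant 3, 0 of 35 passed adjusted, against 0%, and 5 of 35 unadjusted (Itm2a, Cldn5, Tagln, Esam and Vtn, all with the lower effect in females), against 10.6%. These shares lie near the background.

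The signs ran as follows. Of the 35 genes, 20 (57.1%) were lower in female mutants and higher in male mutants than in their wild-type counterparts, against 33.3% of all genes, and 17 (48.6%) without female mutant 3, against 28.4%. Among endothelial identity genes this held for 12 of 15 with all libraries and 9 of 15 without female mutant 3, and in both cases for 1 of 3 tight junction, 1 of 7 barrier transport, 4 of 7 pericyte and 2 of 3 smooth muscle genes. All the genes were read from the same libraries, so these signs are not independent, and no test was made of the counts.

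**Figure D4:**
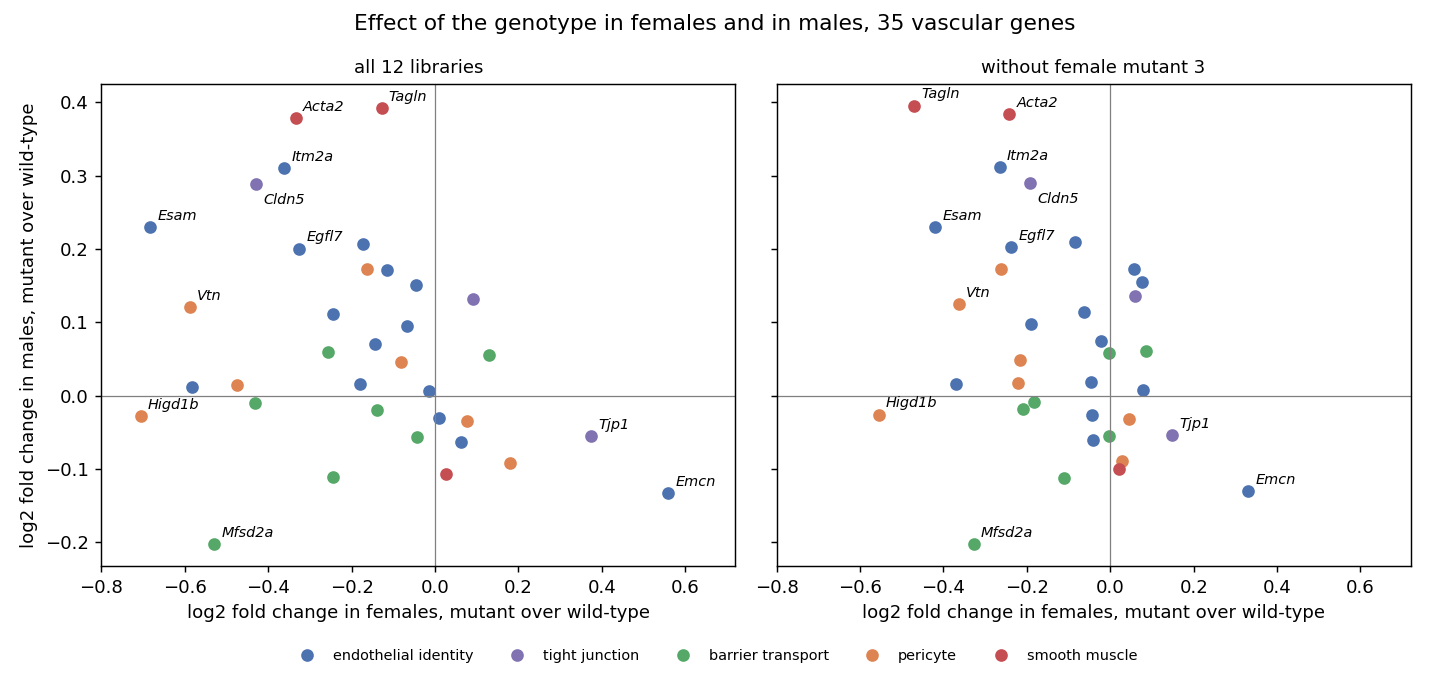
Log2 fold change of each gene in females (horizontal axis) and in males (vertical axis), mutant over wild-type, with all 12 libraries on the left and without female mutant 3 on the right. Each point is a gene, coloured by role. The upper left part, lower in females and higher in males, holds 20 of 35 genes on the left and 17 of 35 on the right.

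Blood cell transcripts are given beside these values. The summed level of 6 red blood cell genes, none at 0 in every library, was 18.2 to 32.3 CPM in female mutants, against 34.4 to 44.3 CPM in female wild-type mice. In males it was 41.0 to 52.3 CPM in mutants, against 20.8 to 27.1 CPM in wild-type mice. Neither pair of ranges overlapped. All 5 genes of the list that were tested had an unadjusted p under 0.05 for the difference between the sexes, against 7.67% of all genes, with a median of -1.55, and 0 passed the adjusted threshold. Their part in the values of Itm2a, Cldn5 and the other vascular genes was not tested.

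Between the sexes, females minus males over both genotypes, 0 of 35 genes passed the adjusted threshold, against 0.0389% of all genes, and 0 of 35 passed unadjusted, against 1.77%. With female mutant 3 left out these were 0 of 35, against 0.0433%, and 0 of 35, against 2.67%. The smallest unadjusted p-values with all libraries were 0.121 for Emcn, with a log2 difference of 0.34 (SE 0.20), and 0.154 for Tie1, with -0.27 (SE 0.18). Female mutant 3 was the highest of all libraries for Emcn and, at 2.32 CPM, the lowest for Tie1. Without it, the log2 differences of the 15 endothelial identity genes ran from -0.17 to 0.22. Emcn had 9.003, 13.9 and 6.36 CPM in female mutants and 6.26, 5.03 and 6.96 CPM in female wild-type mice, and 6.19, 5.65 and 4.80 CPM in male mutants and 7.499, 5.86 and 4.88 CPM in male wild-type mice.

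Female mutant 3 was not a uniformly scaled copy of its group. On log2(CPM + 0.5), 11 of the 35 genes were at least 2-fold lower there than the mean of female mutants 1 and 6, and 14 were higher. Of the 11, Esam and Slc38a5 had 1 count each there and Higd1b had 0. That count allows up to 1.16 CPM, above the 0.904 and 0.962 CPM of Higd1b in female mutants 1 and 6, so its place among the 11 is uncertain. A single count is also imprecise, so the place of Slc38a5, at 1.61 and 1.49 CPM in female mutants 1 and 6, is uncertain too. The 11 lower genes, among them Esam, Slc2a1, Pdgfrb, Cldn5, Vwf and Mfsd2a, had a median G and C content of 54.9% in the longest coding transcript (52.4% to 60.5%) and a median length of 2151 bases. The 14 higher genes, among them Tagln, Emcn, Tjp1 and Rgs5, had a median of 47.0% (40.3% to 53.3%) and a length of 4074 bases. The same was seen over all coding genes tested, where the 3261 that were at least 2-fold lower had a median of 55.9% and the 6209 that were higher 45.9%, beside 50.2% over all 14718. Neuronal marker genes summed to 14436 CPM in that library and to 5405 to 6902 CPM in the other 11. Most of this excess was a single gene, Snap25, at 10049 CPM in that library and 1930 to 2957 CPM in the other 11.

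**Figure D5:**
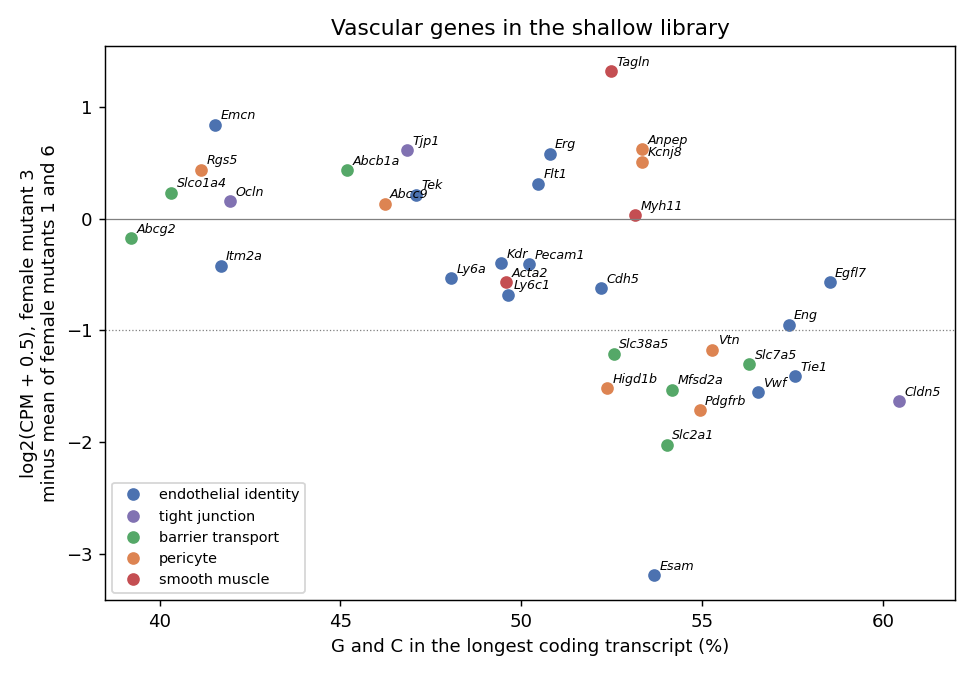
Difference in log2(CPM + 0.5) between female mutant 3 and the mean of female mutants 1 and 6, against the percent of G and C in the longest coding transcript, for the 35 genes coloured by role. The dotted line marks a 2-fold lower level. All 11 genes below it have 52.4% G and C or more. The gene at 52.4% is Higd1b, which had a count of 0 in female mutant 3, and Esam and Slc38a5 had 1 count each.

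Further lists of vascular genes, taken from general knowledge with earlier results known, gave the surroundings of the 35. Over both sexes, 0 of 20 other endothelial genes, 0 of 21 other barrier genes, 0 of 17 genes of vascular ligands and basement membrane and 0 of 17 other mural genes passed the adjusted threshold. Unadjusted, 1, 0, 1 and 0 of them passed, against 3.96% of all genes, and 1, 0, 3 and 0 without female mutant 3, against 7.46%. The medians of their log2 fold changes were -0.09, -0.02, 0.06 and -0.05.

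Cd34, the sialomucin of endothelium that also marks fibroblasts and blood progenitors, had the smallest p of these lists. It had 43.2, 53.4 and 37.0 CPM in female mutants and 40.0, 37.5 and 37.1 CPM in male mutants, against 55.7, 46.5 and 54.4 CPM in female wild-type mice and 51.4, 58.1 and 49.99 CPM in male wild-type mice. Every mutant other than female mutant 3 lay below every wild-type mouse. The log2 fold change was -0.37 (SE 0.10, 95% interval -0.58 to -0.15), with an unadjusted p of 0.00263 and an adjusted p = 0.950 by edgeR, and -0.43 (SE 0.07, adjusted p = 0.136) without female mutant 3. Weighted limma-voom called it with all libraries (-0.41, adjusted p = 0.0313) and DESeq2 called it without female mutant 3 (-0.43, adjusted p = 0.00017), while the other 19 settings did not, and the adjusted p ran up to 0.9998. The log2 fold change in all settings lay between -0.46 and -0.32.

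The other genes named from these lists did not pass. Nr2f2, a transcription factor of venous identity, had 33.6, 42.1 and 67.0 CPM in mutants and 20.1, 35.1 and 43.6 CPM in wild-type mice (log2 fold change 0.38, SE 0.21). Slco1c1, the thyroxine transporter of the barrier, had 38.7, 52.3 and 60.5 CPM in mutants and 49.7, 58.1 and 65.8 CPM in wild-type mice (-0.17, SE 0.10). Apln, the ligand apelin of sprouting endothelium, had 14.7, 25.1 and 29.5 CPM in mutants and 25.2, 31.2 and 35.6 CPM in wild-type mice (-0.35, SE 0.15, unadjusted p of 0.0356, adjusted p = 0.950). These groups overlapped in each case. Female mutant 3 was the highest mutant for Nr2f2 and the lowest for Slco1c1 and Apln, and these fold changes include it. Without it the mutants had 33.6 to 52.1 CPM for Nr2f2, 48.1 to 60.5 CPM for Slco1c1 and 21.3 to 29.5 CPM for Apln.

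Angpt1, the ligand of the Tek receptor, had 6.69, 7.73 and 14.7 CPM in mutants and 5.45, 6.33 and 9.46 CPM in wild-type mice (0.28, SE 0.19). Its highest value was that of female mutant 3, and the other mutants had 6.69 to 9.10 CPM. Marveld2, the tricellular junction protein, had 0.774, 0.950 and 2.30 CPM in mutants and 0.752, 0.876 and 1.12 CPM in wild-type mice (0.52, SE 0.29). Pde8b, a phosphodiesterase gene listed among mural markers, had 68.2, 86.5 and 89.5 CPM in mutants and 78.0, 94.2 and 109 CPM in wild-type mice (-0.19, SE 0.10). Des, the intermediate filament desmin of mural cells, had 0.962, 1.43 and 4.80 CPM in mutants and 0.873, 1.13 and 1.72 CPM in wild-type mice (0.65, SE 0.37), with the highest value in female mutant 1.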

How the data were processed

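Messenger RNA of frozen cortex from 12 mice was sequenced with 1 library each. Per the labels' protocols, RNA came from a TriReagent and column extraction, Kapa mRNA HyperPrep was the library kit, and paired reads were taken on a NovaSeq. Per the submitters' processing notes, Trimmomatic 0.36, HISAT2 2.1.0, Cufflinks and HTSeq 0.11 were used with GRCm38.p6. Strand setting and annotation release: not given in the sources used here. The deposited table holds raw counts per gene, without normalization by the authors. Of 54232 identifiers, 54165 matched GENCODE M21, from which symbols, coordinates and exon lengths were taken, and the remaining ones made up no more than 0.0297% of any library. The labels give no batch. Each column is 1 mouse, and no library was a repeat of another: chi-square over its degrees of freedom, between mice of a group, ran from 9.86 to 169.9.

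The test was the quasi-likelihood F-test of edgeR 4.0.16 in R 4.3.3, after TMM scaling, on genes kept by filterByExpr over the 4 groups. Both-sex and sex effects came from an additive model, and the effect within a sex and the interaction from a model of 1 mean per group. Benjamini-Hochberg adjustment covered every gene in the fit, and calls were made at 0.05. SEs were taken from the test statistic, and intervals are at 95%. The alternatives were DESeq2 1.42.0, weighted limma-voom (limma 3.58.1), both also without female mutant 3, RLE or total scaling, other filters, no sex term, and leaving out each library. The edgeR procedure was also run on simulated counts with known fold changes, as a check of the code. That check did not imitate the uneven levels of female mutant 3, and no result here rests on it.

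The genes, roles, lists and alternatives were chosen with earlier results of these data known. Genes given per library or by lowest, median and highest value were Cldn5, Flt1 and Pdgfrb, the 2 of smallest p in each role over both sexes, the 2 of smallest p in each other comparison, and in each further list the 2 of smallest p. Rgs5 and Slc2a1 were added after their values were seen, as was the pairing with red blood cell genes.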

Additional observations from a re-analysis of the deposited data

Results flagged for a closer look

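The levels of the 35 genes were examined for a library far from the others of its genotype by Dixon's test, over 70 groups of 6 libraries. Chance flags about 1 in 20 groups, and 9 of the 70 were flagged, of which 8 were female mutant 3.

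Female mutant 3 was the lowest of the 6 mutants for Slc2a1 at 13.9 CPM (next 53.0), Slc7a5 at 15.1 CPM (next 36.8), Pdgfrb at 5.81 CPM (next 17.2), Mfsd2a at 3.10 CPM (next 8.65) and Slc38a5 at 0.387 CPM (next 1.32), the last from a single count. It was the highest of the 6 mutants for Tjp1 at 292 CPM (next 199.7), Rgs5 at 164 CPM (next 124) and Abcb1a at 46.5 CPM (next 36.0). These genes cross the roles, with barrier transporters, a pericyte receptor and a junction scaffold among them.

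Male wild-type 8 was the lowest of the 6 wild-type mice for Kcnj8, the potassium channel gene of pericytes, at 1.91 CPM (next 2.39). This rests on 42 counts there, against 55 to 68 in the other wild-type mice. Counting error alone gives this gene a coefficient of variation of 12.9%.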

How the results depend on the processing

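Of the 35 vascular genes, 0 were called in any of the 21 alternatives over both sexes, or in any of the 20 run for the other 4 comparisons, which leave out the model with no sex term. The median log2 fold change over both sexes ran from -0.09 to 0.08 for endothelial identity, 0.04 to 0.17 for tight junction, -0.21 to -0.07 for barrier transport, -0.07 to 0.05 for pericyte and -0.07 to 0.13 for smooth muscle genes. Of 735 values of single genes over both sexes, 101 took the other sign, over 19 genes, and 7 moved by more than 1 SE. Leaving out female mutant 3 turned 10 signs. Scaling by library totals put the median of all genes in females at -0.21, beside -0.03 with TMM. Over all genes and both sexes, 1 gene was called, against 29 by DESeq2, 22 by weighted limma-voom, 53 by DESeq2 and 4 by weighted limma-voom without female mutant 3, 0 with library totals and 0 to 2 when 1 library was left out. Within females, 0 genes were called, against up to 15 (DESeq2 without female mutant 3), within males 0 against up to 16 (the same), for the interaction 0 against up to 4 (DESeq2 with and without it), and between the sexes 7 against up to 13 (DESeq2 without it). No paired analysis was possible because each animal number occurs once.

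The depth of female mutant 3 limits the genes of few counts, such as Higd1b, Esam and Slc38a5. With 1 library removed, 2 stayed in that group and the fit still shared its spread over the groups.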

Other observations

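Genes of the vascular basement membrane and of metabolite transport gave further values. Col4a1 and Col4a2, the collagen IV chains of the basement membrane, had log2 fold changes over both sexes of 0.13 and 0.09 with all libraries, and 0.27 (unadjusted p of 0.00179, adjusted p = 0.403) and 0.20 (unadjusted p of 0.0164, adjusted p = 0.550) without female mutant 3. Slc16a1, the monocarboxylate transporter MCT1 of brain endothelium, had 0.33 (SE 0.10) in males, with an unadjusted p of 0.00698, and its effect differed between the sexes by -0.54, with an unadjusted p of 0.00282 and an adjusted p = 0.555. With all libraries, Slco1c1 was lower in female mutants by a log2 fold change of -0.38 (unadjusted p of 0.0106, adjusted p = 0.418). That fold change includes female mutant 3, which had the lowest value, 38.7 CPM, beside 48.1 and 51.3 CPM in female mutants 1 and 6. Female wild-type mice had 55.4 to 65.8 CPM. Col4a1, Col4a2 and Slc16a1 were named after their values were seen.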
